A study of Mus musculus with 27 samples.

Results

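Imprinted growth genes were followed in mK4 cells, a cell line from the metanephric mesenchyme of the mouse kidney. The group held 10 genes of the 24953 listed in the expression table: H19, Dlk1, Meg3, Peg3, Plagl1, Cdkn1c, Grb10, Mest, Ndn and Phlda2. They were taken by symbol, and all 10 had a row. The comparison asked whether imprinted genes differed between lines edited by CRISPR-Cas9. RNA-seq on poly(A) RNA was made from 3 genotypes, each with 3 libraries. Control cells were the unedited parental line. Runx1KO cells carried a deletion of the Runx1 exon with the start codon, made with puromycin selection and picking of clones. ZebDKO cells carried deletions in Zeb1 and in Zeb2, which encode repressors known for silencing epithelial genes. Control and Runx1KO cells also had ATAC-seq, which maps accessible chromatin, and ChIP-seq for Runx1 and for Runx2. The number of clones behind each edited line was not given in the sources used here, so clone and genotype cannot be told apart. The p-values measure the spread between cultures of a line. The labels name no batch of preparation or sequencing. A batch that followed the lines could not be told apart from genotype either.

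An imprinted gene is read mainly from the allele of 1 parent, because DNA methylation set in the egg or sperm marks a control region of its cluster. Many imprinted genes act on fetal growth: in general, genes read from the paternal allele promote it and genes read from the maternal allele restrain it. In embryonic kidney and other tissues several of them are high before birth and fall afterwards. The expression values here were not split by allele, so they give the total RNA of a gene and not its imprinting.

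The libraries of a genotype were alike, each with a correlation across genes of at least 0.994 to the others of its line and none over 0.927 to those of another line, and none stood apart. Expression was given as TPM (transcript levels scaled for gene length to a fixed total in each library), which keeps no read number, so depth is unknown; 12541 to 12697 genes reached 1 TPM in each library. Of the targeted genes, Runx1 read 15.6 to 18.7 TPM in control, 28.5 to 30.3 in Runx1KO and 9.4 to 10.5 in ZebDKO cells. Zeb1 read 14.2 to 15.6 TPM in control, 0.1 to 0.2 in Runx1KO and 14.8 to 16.8 in ZebDKO cells, and Zeb2 read 4.9 to 5.5, 0.2 and 1.6 to 1.8. A whole-gene TPM does not resolve the deleted exon, so these values do not check the edits of Runx1 and Zeb1. Per the paper, PCR showed the deletions. Western blots there showed loss of Runx1 protein in Runx1KO and of Zeb1 protein in ZebDKO cells. Antibodies to Zeb2 did not detect it in control cells. Of 10 markers of metanephric mesenchyme, 7 reached 1 TPM in control, 5 in Runx1KO and 7 in ZebDKO cells, with summed levels of 3419 to 3560, 3499 to 3629 and 2691 to 2760 TPM that were mostly Vim. In Runx1KO cells 3 of the 7 markers tested were called lower than in control. Osr1 went from a mean of 66.4 to 0.4 TPM, Gdnf from 12.7 to 0.1 and Eya1 from 16.2 to 5.87. The others did not fall with them: Pax2 went from 313 to 470 TPM and Sall1 from 52.1 to 65.7. Hoxa11 (214 and 212) and Vim (2803 and 2806) stayed level. In ZebDKO cells 1 marker was called higher than in control, Gdnf at 39.8 TPM, and 1 lower, Osr1 at 18.2. Six2 was at 0.2 or less and Hoxd11 at 0 in every library. The summed TPM of 8 epithelial markers was 2.8 to 5 in control, 2660 to 2743 in Runx1KO and 1150 to 1210 in ZebDKO cells, with 1, 6 and 6 of them at 1 TPM or more; Cdh1 stayed at 0.6 or less in every library and Epcam was listed at 0 in control and Runx1KO cells. Summed markers of stroma were at 90.9 to 99.1, 59.3 to 65.9 and 56.9 to 59.4 TPM, those of endothelium at 2.9 to 4.5, 1 to 1.3 and 3.6 to 5.8, and those of leukocytes at 1.9 to 2.7, 1.8 to 2.5 and 2.8 to 3.3.

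Of the 10 members, Peg3, Grb10 and Cdkn1c were expressed in every library, Mest lay around 1 TPM, Phlda2 and Plagl1 passed 1 TPM in edited cells alone, and the other 4 were at or near 0 in all 9 libraries. In control cells the order of the mean levels was Peg3 (416 TPM ± 29.9, SD, n = 3), Grb10 (103 ± 3.29), Cdkn1c (3.33 ± 0.231) and Mest (1.07 ± 0.289), and none of these neighbours overlapped in range. Below them Phlda2, H19 and Plagl1 lay between 0 and 0.4 TPM with overlapping ranges, and Ndn, Dlk1 and Meg3 were listed at 0.

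**Figure D1:**
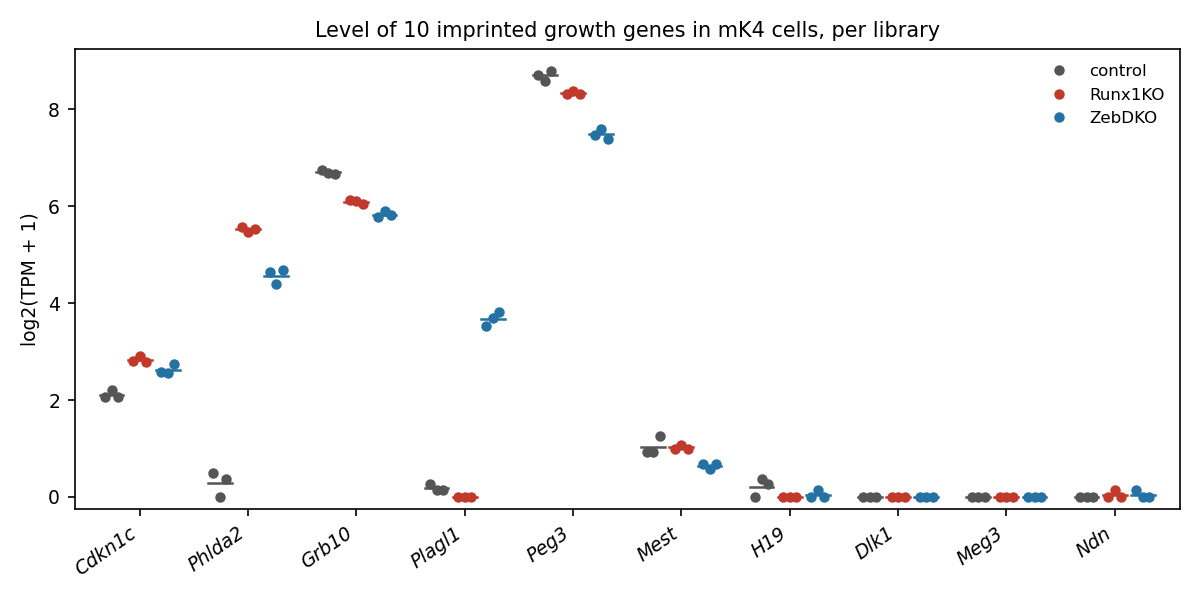
Level of each member as log2(TPM + 1), with 1 point per library and a line at the mean of the 3 libraries of a genotype. Phlda2 lay near 0 in control cells and high in both edited lines, Plagl1 was high in ZebDKO cells alone of the 3 lines, and H19, Dlk1, Meg3 and Ndn lay near 0 in all 9 libraries.

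Phlda2, a small pleckstrin-homology protein that restrains growth of the placenta, had the widest range. It read 0.4, 0 and 0.3 TPM in the control libraries, 46.7, 43.4 and 45.2 in Runx1KO and 23.9, 19.9 and 24.6 in ZebDKO. All edited libraries lay far above the control libraries, and the edited lines did not overlap each other. The summed epithelial markers, mostly Krt8 (means of 2.43, 2353 and 1050 TPM in control, Runx1KO and ZebDKO cells), stood in the same order of lines as Phlda2. Not every marker did: Krt18 stood at 32.4 TPM in Runx1KO and 42.8 in ZebDKO cells, and Epcam at 0 and 27.9. Their part in this result was not tested. Cdkn1c, the cyclin-dependent kinase inhibitor p57 encoded in the same cluster, read 3.2, 3.6 and 3.2 TPM in control, 6, 6.5 and 5.9 in Runx1KO and 5, 4.9 and 5.7 in ZebDKO. Every edited library was above every control library, and the highest ZebDKO library came close to the lowest of Runx1KO. Grb10, an adaptor that dampens signalling by the insulin and IGF receptors, read 106.5, 101.7 and 100.2 TPM in control, 69.2, 67.7 and 65.1 in Runx1KO and 53.6, 58.6 and 55.1 in ZebDKO. Its level was highest in control and lowest in ZebDKO cells, with no overlap between lines.

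Plagl1, a zinc finger transcription factor that can arrest the cell cycle and is read from the paternal allele, read 0.2, 0.1 and 0.1 TPM in control, 0 in each Runx1KO library and 10.6, 11.9 and 13 in ZebDKO. It was thus expressed in 1 of the 3 lines. Peg3, a large zinc finger protein read from the paternal allele, read 418.2, 384.9 and 444.5 TPM in control, 316.8, 330.8 and 317.4 in Runx1KO and 175.9, 192.7 and 166.3 in ZebDKO. Its levels stepped down from control to Runx1KO to ZebDKO cells without overlap. Mest, a hydrolase-like protein of mesoderm, read 0.9, 0.9 and 1.4 TPM in control, 1, 1.1 and 1 in Runx1KO and 0.6, 0.5 and 0.6 in ZebDKO. The control and Runx1KO libraries overlapped, and the ZebDKO libraries lay below both.

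The other 4 members gave no level to compare. H19, a long noncoding RNA, read 0, 0.3 and 0.2 TPM in control, 0 in each Runx1KO library and 0, 0.1 and 0 in ZebDKO. Ndn, which encodes necdin, reached 0.1 TPM in 1 Runx1KO and 1 ZebDKO library and was listed at 0 in the others. Dlk1, a membrane protein with EGF repeats, and Meg3, the noncoding RNA of the same cluster, were listed at 0 in all 9 libraries.

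For Runx1KO against control cells, 1 member was called, Phlda2, which was higher in Runx1KO cells. A gene was called at over 2-fold with an adjusted p under 0.05 in limma, on log2(TPM + 1), and had to reach 1 TPM in at least 3 of the 6 libraries to be tested. Of the 10 members 5 were tested (Peg3, Cdkn1c, Grb10, Mest and Phlda2). Over the 13067 genes tested, 7.91% were called higher and 5.10% called lower. At an adjusted p under 0.05 alone, Phlda2 and Cdkn1c rose and Peg3 and Grb10 fell, where 30.4% of all tested genes rose and 40.1% fell. The libraries did not overlap for 4 of the 5, and for 73.7% of all tested genes. A change in 4 of 5 members is therefore near the background of this comparison.

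Phlda2 rose by 5.24 (SE 0.124, adjusted p = 7.66e-08) on the log2 scale. It passed the filter on low values through Runx1KO cells alone and so had to differ once tested. Cdkn1c rose by 0.72 (SE 0.0684, adjusted p = 7.63e-05), or 1.84-fold in mean TPM. Grb10 fell by 0.60 (SE 0.0365, adjusted p = 7.67e-06), to 0.655 of the control mean. Peg3 fell by 0.37 (SE 0.0522, adjusted p = 0.000596), to 0.773 of it. The difference of Mest was -0.01 (SE 0.117, adjusted p = 0.917), within the spread of its control libraries. Thus the members that moved had no common direction. Phlda2 and Cdkn1c were higher and Grb10 lower, all 3 known as maternally expressed, and the paternally expressed Peg3 was lower too.

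For ZebDKO against control cells, 3 members were called: Plagl1 and Phlda2 were higher and Peg3 was lower. Of 12974 genes tested, 7.50% were called higher and 7.28% called lower. Again 5 members were tested, with Plagl1 in place of Mest. All 5 passed an adjusted p of 0.05, Plagl1, Phlda2 and Cdkn1c rising and Grb10 and Peg3 falling, where 26.9% of tested genes rose and 52.5% fell. Libraries did not overlap for these 5 members nor for 81.0% of all tested genes.

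Plagl1 rose by 3.50 (SE 0.0932, adjusted p = 1.06e-07) and Phlda2 by 4.28 (SE 0.142, adjusted p = 2.77e-07) on the log2 scale. Both passed the filter through ZebDKO cells alone. Cdkn1c rose by 0.52 (SE 0.0796, adjusted p = 0.000605), or 1.56-fold. Peg3 fell by 1.22 (SE 0.0683, adjusted p = 3.30e-06) and was 2.33-fold lower in mean TPM. Grb10 fell by 0.87 (SE 0.0442, adjusted p = 2.09e-06) and was 1.84-fold lower. The median tested gene differed by -0.18 in this comparison and by 0.00 once libraries were scaled by median ratios, which moved the share of calls that were higher from 50.8% to 64.0%. On that scale Peg3 differed by -1.02, Grb10 by -0.68 and Cdkn1c by 0.67, each in the same direction as before.

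**Figure D2:**
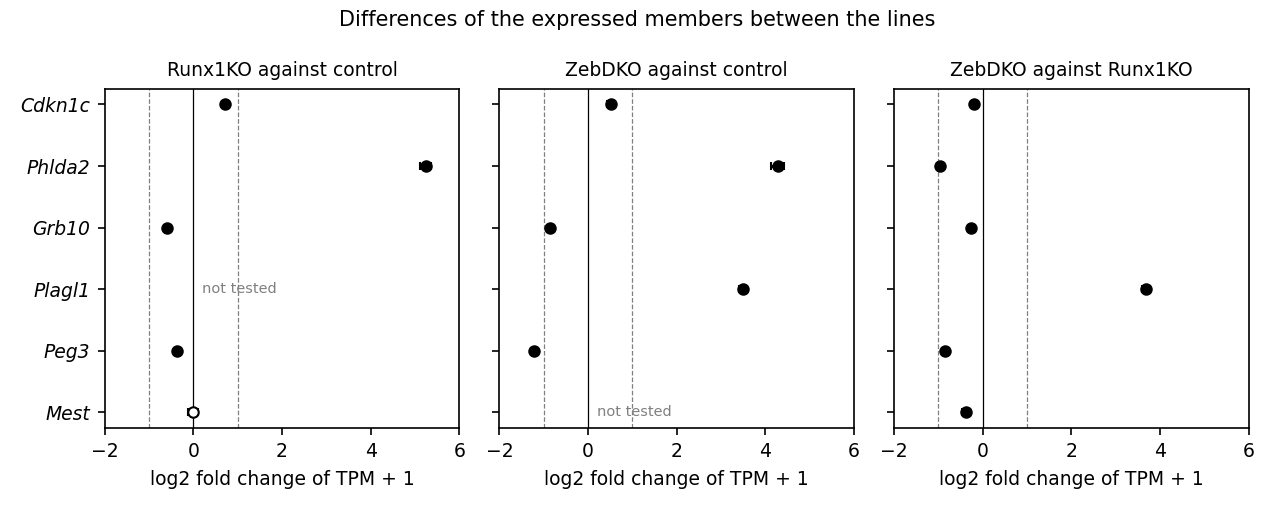
Difference of the 6 members expressed in at least 1 line, as log2 fold change of TPM + 1 with the SE of the limma fit, in 3 comparisons of 3 libraries against 3. Filled points passed an adjusted p of 0.05, the open point (Mest, -0.01) did not, and dashed lines mark 2-fold; against control Phlda2 lies far above 2-fold in both edited lines, and Plagl1 does in the comparisons of ZebDKO cells.

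For ZebDKO against Runx1KO cells, 1 member was called, Plagl1, which was higher in ZebDKO cells. Of 13071 genes tested, 6.60% were called higher and 9.20% called lower. The 6 members expressed anywhere were tested. Plagl1 rose and the other 5 fell at an adjusted p under 0.05, where 29.8% of all tested genes rose and 50.2% fell; libraries did not overlap for the 6, nor for 81.7% of all tested genes. Plagl1 was listed at 0 in each Runx1KO library, so no fold is given (adjusted p = 7.21e-08); it passed the filter through ZebDKO cells alone and so had to differ once tested. Phlda2 fell by 0.96 (SE 0.0787, adjusted p = 1.98e-05) and was 1.98-fold lower in mean TPM, just short of the 2-fold limit; it reached -1.01 and was called without ZebDKO replicate 3. Peg3 fell by 0.85 (SE 0.0531, adjusted p = 4.99e-06) and was 1.80-fold lower. Mest fell by 0.38 (SE 0.0896, adjusted p = 0.00578) and passed the filter through Runx1KO cells alone. Grb10 fell by 0.27 (SE 0.0430, adjusted p = 0.000753). Cdkn1c fell by 0.20 (SE 0.0721, adjusted p = 0.0326), and this result depends on the processing. Under quantile normalization the difference was 0.05 with an adjusted p of 0.589. Without ZebDKO replicate 1 or 2, or Runx1KO replicate 1 or 2, the adjusted p rose to as much as 0.103. The median tested gene differed by -0.15 here, and by 0.00 after median-ratio scaling, where Grb10 was at -0.11 and Peg3 at -0.69, and where the share of calls that were higher went from 41.8% to 53.4%. The 3 comparisons share libraries, so their values are given side by side and are not independent of each other.

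The neighbours of the members in their imprinted clusters did not all follow them. Strand use in counting was not given, so overlapping genes such as Plagl1 with Hymai, Snrpn with Snurf, and Kcnq1 with Kcnq1ot1 are uncertain. In the Peg3 cluster, Zim1, a zinc finger gene read from the maternal allele, read 24.5, 20.7 and 22.7 TPM in control, 3.8, 4 and 3.5 in Runx1KO and 0.7, 1.3 and 0.9 in ZebDKO. It was called lower in each comparison, by 2.31 (SE 0.0742, adjusted p = 3.12e-07), by 3.60 (SE 0.120, adjusted p = 2.87e-07) and, for ZebDKO against Runx1KO, by 1.29 (SE 0.122, adjusted p = 4.28e-05). Usp29, a ubiquitin protease gene read from the paternal allele, fell from 3.97 TPM in control to 3.23 in Runx1KO (adjusted p = 0.00935) and 2.2 in ZebDKO cells (adjusted p = 8.04e-05). Both neighbours stepped down in the same order of lines as Peg3.

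In the cluster of Cdkn1c and Phlda2, no tested neighbour moved on the scale of Phlda2. Slc22a18, a transporter gene that lies between them, read 0.3, 0.5 and 0.4 TPM in control, 1.8, 1 and 1.6 in Runx1KO and 0.6, 0.8 and 1 in ZebDKO. It rose by 0.81 (SE 0.146, adjusted p = 0.00205) in Runx1KO against control and passed the filter through Runx1KO cells alone. Nap1l4, a histone chaperone gene next to Phlda2, had means of 78.0, 74.7 and 69.8 TPM in control, Runx1KO and ZebDKO cells. Cd81 had 487, 518 and 436 TPM, and Tssc4 35.3, 30.4 and 36.3. Kcnq1ot1, the noncoding RNA read from the paternal allele, is known for silencing this cluster in cis. It stayed at 0.1 or 0.2 TPM in every library and was not tested. Kcnq1 itself read 0.1, 0.1 and 0.2 TPM in control, 0.7, 0.8 and 1.2 in Runx1KO and 1.6, 0.9 and 1.7 in ZebDKO. Every edited library lay above every control library, but too few reached 1 TPM for a test against control.

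Igf2, the growth factor gene that shares an imprinting control region with H19, was abundant while H19 was near 0. It read 109.3, 102.2 and 106.8 TPM in control, 121.2, 120.9 and 121.3 in Runx1KO and 91.4, 97.7 and 99 in ZebDKO. It rose by 0.19 (SE 0.0311, adjusted p = 0.00122) in Runx1KO against control. In ZebDKO against control it differed by -0.14 (SE 0.0430, adjusted p = 0.0169), and by 0.05 under median-ratio scaling, so no direction holds there. Cobl, an actin nucleator gene beside Grb10, read 18.6, 16.8 and 18.8 TPM in control, 41.1, 40.4 and 40 in Runx1KO and 14.3, 15.8 and 14.7 in ZebDKO. It rose by 1.12 (SE 0.0490, adjusted p = 1.44e-06) in Runx1KO cells, where Grb10 fell.

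In the cluster of Ndn, Magel2 was at 0.1 TPM or less in every library, but other genes were expressed. Snrpn, a splicing factor gene, rose by 0.60 (SE 0.0781, adjusted p = 0.000374) in Runx1KO against control, from a mean of 2.67 to 4.57 TPM. It stood at 2.2 in ZebDKO cells. Snurf, which overlaps Snrpn, had means of 27.3, 46.3 and 22.2 TPM in control, Runx1KO and ZebDKO cells. The other deposited TPM values, of control and Runx1KO cells alone, list Snrpn at 0 in every library, so its rise is not seen there. Ube3a, a ubiquitin ligase gene, read 40, 34.4 and 38.2 TPM in control, 35.9, 36 and 36.7 in Runx1KO and 16.7, 18.4 and 15.5 in ZebDKO. It fell by 1.11 (SE 0.0775, adjusted p = 9.29e-06) in ZebDKO against control. Mkrn3, a ring finger gene, had means of 0.467, 1.6 and 1.83 TPM, and Peg12 was listed at 0 in control and Runx1KO cells and read 0.5, 0.4 and 0.7 in ZebDKO. Hymai, which overlaps Plagl1, was likewise listed at 0 in control and Runx1KO cells and read 0.5, 0.4 and 0.4 in ZebDKO. In the cluster of Dlk1 and Meg3, Rian, Mirg, Rtl1 and Dio3 did not pass 0.3 TPM in any library, and Klf14 near Mest did not pass 0.1. Copg2 beside Mest had means of 22.0, 20.1 and 18.9 TPM.

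**Figure D3:**
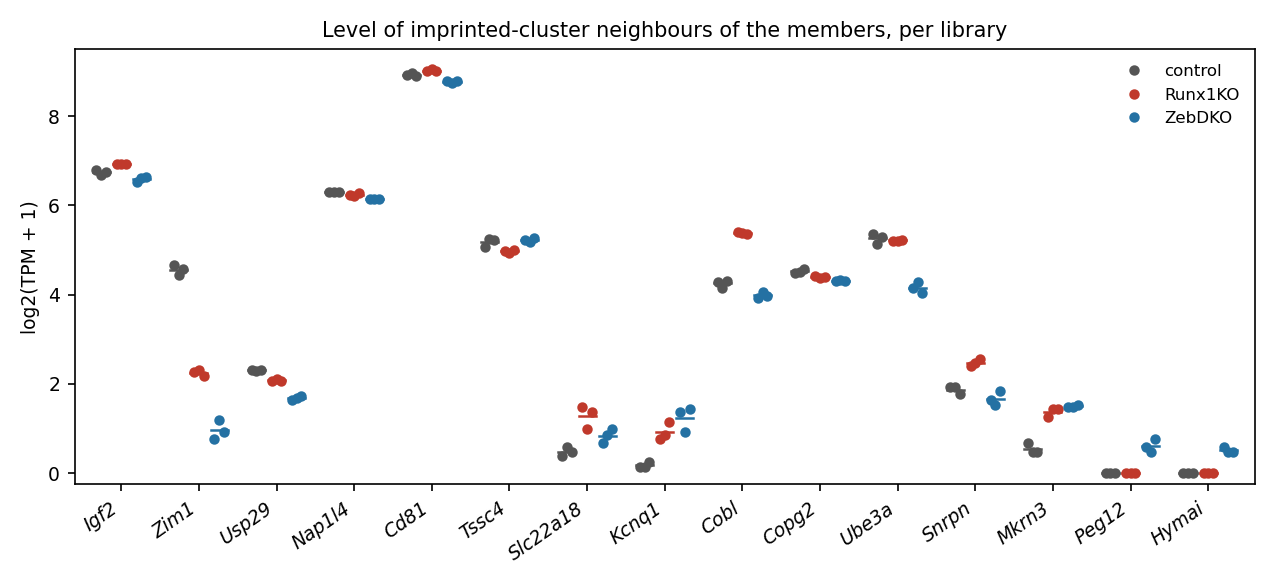
Level of 15 genes from the imprinted clusters of the members, as log2(TPM + 1), with 1 point per library and a line at the mean of the 3 libraries. Zim1 steps down from control to Runx1KO to ZebDKO cells, Cobl is highest in Runx1KO cells, and Peg12 and Hymai are above 0 in ZebDKO cells alone.

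Over a list of 62 other genes reported as imprinted in mouse, neighbours included, the medians were close to those of all genes. The list was written down from general knowledge, and some of its genes are imprinted in certain tissues only. Whether they are imprinted in mK4 cells was not tested. For Runx1KO against control, 35 were tested, 2 were called higher and 2 lower (7.91% and 5.10% of all tested genes), and 14 rose and 13 fell at an adjusted p under 0.05. Their median difference was -0.03, beside -0.06 over all tested genes. For ZebDKO against control, 33 were tested, none was called higher and 5 were called lower (7.50% and 7.28% of all tested genes), and 7 rose and 20 fell, with a median of -0.21 beside -0.18. For ZebDKO against Runx1KO, 35 were tested, none was called higher and 7 were called lower (6.60% and 9.20% of all tested genes), and 6 rose and 20 fell, with a median of -0.18 beside -0.15. Over all tested genes of the 3 comparisons in that order, 30.4%, 26.9% and 29.8% rose and 40.1%, 52.5% and 50.2% fell. Among the 62, the genes listed as paternally expressed (14, 14 and 13 tested) had medians of -0.10, -0.34 and -0.68. Those listed as maternally expressed (21, 19 and 22 tested) had 0.02, -0.16 and -0.09, and the split was not tested. The calls depend on scaling: for ZebDKO against control 3 were called under quantile normalization, and for ZebDKO against Runx1KO 4 were called under it and 4 under median-ratio scaling. Besides Zim1 and Cobl, the genes with the widest called differences were Ano1, Dcn and Peg10. Ano1, a chloride channel gene, went from 0, 0 and 0.1 TPM in control to 3.8, 2.8 and 3.3 in Runx1KO, and passed the filter through Runx1KO cells alone. Dcn, which encodes the matrix proteoglycan decorin, fell from a mean of 7.47 TPM in control to 1.6 in Runx1KO (adjusted p = 1.50e-05) and 1.67 in ZebDKO cells (adjusted p = 2.55e-05). Peg10, a retrotransposon-derived gene needed in the placenta, fell from 22.5 TPM in control to 6.4 in ZebDKO (adjusted p = 5.90e-06), with 15.9 in Runx1KO cells.

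Of 21 regulators that set, keep or erase imprinting marks, 17, 16 and 17 were tested for Runx1KO against control, ZebDKO against control and ZebDKO against Runx1KO. By limma none was called for Runx1KO against control, beside 7.91% of all tested genes called higher and 5.10% lower. The regulator Zfp57 was near the limit, at 9.7, 9.6 and 10.8 TPM in control and 20.6, 20.1 and 19.8 in Runx1KO cells. On log2(TPM + 1) it was not called. Of the 17 regulators 12 had an unadjusted p under 0.05, beside 9522 of all 13067 genes tested. At an adjusted p under 0.05, 2 rose and 10 fell, where 30.4% of all tested genes rose and 40.1% fell. The median was -0.19 beside -0.06 over all tested genes. For ZebDKO against control 4 rose and 9 fell (median -0.19 beside -0.18), where 26.9% of all tested genes rose and 52.5% fell. None was called higher and 1 lower, beside 7.50% and 7.28% of all tested genes. For ZebDKO against Runx1KO 6 rose and 7 fell (median -0.01 beside -0.15), where 29.8% of all tested genes rose and 50.2% fell. Here too none was called higher and 1 lower, beside 6.60% and 9.20% of all tested genes. The call against control was Tet2, an enzyme that oxidises methylated cytosine, which fell from 9 to 3 TPM in ZebDKO cells (adjusted p = 4.55e-06). Between the edited lines Dnmt3b, a de novo DNA methyltransferase, was called lower in ZebDKO cells, at 0.2 against 1.5 TPM (adjusted p = 2.30e-05). It passed the filter through Runx1KO cells alone, was not tested with a filter of 5 TPM, and fell just short of the 2-fold limit under median-ratio scaling (-0.996 on the log2 scale).

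The genes whose pattern over the 9 libraries was most like that of a member were sought by the root mean square difference of centred log2(TPM + 1) over 13368 genes. For Phlda2 these were Itgb4, Lypd3 and Fam110c, with differences of 0.17, 0.18 and 0.21. For Plagl1 they were Alcam, Lgr6 and Flt4, with 0.10, 0.14 and 0.14, and for Peg3 they were Mdc1, Pja2 and Peg3os, with 0.05, 0.05 and 0.06. The name Peg3os marks a transcript on the strand opposite to Peg3, and without strand its reads and those of Peg3 cannot be told apart.

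Chromatin was compared around the annotated starts of the members in control and Runx1KO cells, on mm9 with GENCODE vM1 gene models. The ZebDKO samples of this series were RNA-seq alone. The authors sorted accessible regions into those that lost accessibility in Runx1KO cells, named closing here, those that gained it, named opening, and stable ones. Lists made on pooled replicates or on at least 2 of 3 replicates hold no values per replicate, so nothing here was tested. Within 100 kb of a start, 4 members had a closing region (Dlk1, Peg3, Plagl1 and Grb10), 4 an opening one (H19, Plagl1, Cdkn1c and Phlda2) and 8 a stable one. Of the 20260 genes with a position, 47.7%, 58.3% and 85.2% had one. A Runx1 peak lay within 100 kb for 6 members (H19, Peg3, Cdkn1c, Grb10, Mest and Phlda2) and for 64.5% of all genes, and within 20 kb for Peg3 and Grb10 and for 28.4%. These shares are near the background, and the members differ from each other in the class of region around them. Of the 59 regions, 13 were closing, 12 opening and 34 stable; 3, 0 and 3 of them held a Runx1 peak and 4, 0 and 8 a Runx2 peak of control cells.

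**Figure D4:**
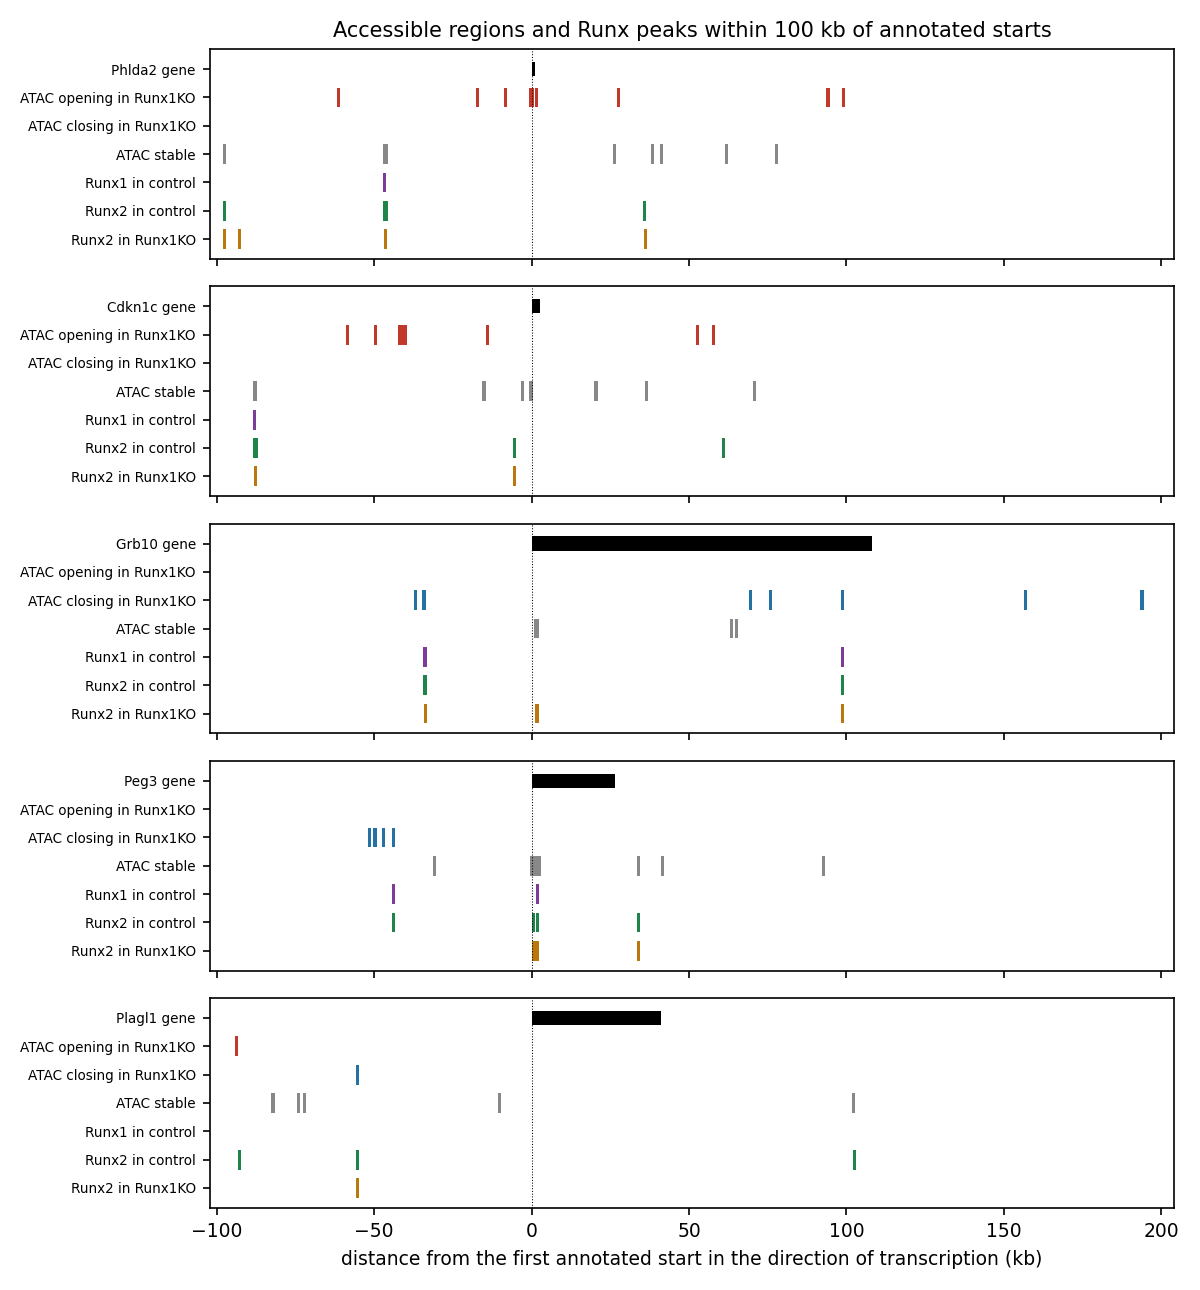
Accessible regions of each class and Runx peaks within 100 kb of any annotated start of 5 members, by distance in kb from the first annotated start in the direction of transcription; the black bar is the gene, and peaks under 1 kb are drawn 1 kb wide. The regions near Phlda2 and Cdkn1c are opening or stable, while those near Grb10 and Peg3 are closing or stable.

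Phlda2 (chr7:150687450-150688446, minus strand) was the 1 member with an opening region over its start, at chr7:150687544-150689200, a feature found within 1 kb of a start for 4.83% of genes. A further opening region lay 1.3 kb downstream, and 8 opening and 7 stable regions but no closing one lay within 100 kb. None of the 8 held a Runx1 or Runx2 peak, and the nearest Runx1 peak was 46.5 kb upstream, in a stable region within Nap1l4 (3.79-fold over background, q = 0.00337). Cdkn1c (chr7:150644255-150646955, minus strand) shares 7 of these opening regions, the nearest 13.8 kb upstream of it in Slc22a18, while the region over its own start was stable. Plagl1 (chr10:12810497-12851500, plus strand) had no region over a start in these 2 lines, in which its level was 0.2 TPM or less; the nearest was a stable one 10.1 kb upstream. Its 1 closing region, 55.1 kb upstream, held a Runx2 peak in both lines (3.91-fold in control and 4.67-fold in Runx1KO) and no Runx1 peak. The 300 bases before the first annotated start of these 2 members, which were under 1 TPM in control cells and above it in an edited line, are shown on the strand of the gene. Capitals mark the letters TGTGGT of a Runx site and CAGGTG or CAGGTA of a Zeb site, on either strand.

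Phlda2, chr7:150688447-150688746, minus strand: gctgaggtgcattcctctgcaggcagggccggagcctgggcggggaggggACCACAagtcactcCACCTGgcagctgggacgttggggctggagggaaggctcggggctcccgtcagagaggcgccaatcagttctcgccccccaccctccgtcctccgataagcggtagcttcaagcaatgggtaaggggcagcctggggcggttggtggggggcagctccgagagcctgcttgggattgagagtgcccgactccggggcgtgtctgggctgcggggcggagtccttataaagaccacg

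Plagl1, chr10:12810197-12810496, plus strand: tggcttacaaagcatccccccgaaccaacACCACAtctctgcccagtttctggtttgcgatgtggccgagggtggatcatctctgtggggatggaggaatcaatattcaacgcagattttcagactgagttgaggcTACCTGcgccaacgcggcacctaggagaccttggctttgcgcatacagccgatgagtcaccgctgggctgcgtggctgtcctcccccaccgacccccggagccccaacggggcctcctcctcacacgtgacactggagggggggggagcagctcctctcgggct

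Phlda2 holds the Runx letters starting 250 bases and the Zeb letters starting 236 bases before its start, and Plagl1 holds them 271 and 164 bases before. Neither pair of matches overlaps. Such matches are not particular to these 2 members. The window of Dlk1, listed at 0 TPM in every library, holds the Runx letters 143 and the Zeb letters 138 bases before its start. The windows of H19, Meg3 and Grb10 hold the Runx letters and not the Zeb letters. Of all 20260 windows of the same kind, 15.0% hold the Runx letters and 28.3% the Zeb letters. In the 300 bases at the middle of accessible regions, the Zeb letters are found in 62.7% of opening, 33.3% of stable and 18.7% of closing regions; the middle of the region over the Phlda2 start holds 1 match. A match is a description and not a bound site.

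Grb10 (chr11:11830511-11938686, minus strand) had 7 closing and 3 stable regions and no opening one within 100 kb of its 9 annotated starts. A stable region (chr11:11936408-11937853) covers an annotated start inside the gene. The closing region at chr11:11839555-11840089 lies in an intron, 98.6 kb into the gene, next to the start of a short transcript, and it held the strongest Runx1 peak near any member (8.35-fold, q = 1.23e-19) with Runx2 peaks of 8.61-fold in control and 7.28-fold in Runx1KO cells. A closing region upstream of the gene, 33.6 kb from the first start, held a Runx1 peak of 6.15-fold (q = 4.55e-10) and Runx2 peaks of 7.12-fold in both lines. Peg3 (chr7:6656603-6683132, minus strand) had a stable region over its start (chr7:6682870-6683388) and 4 closing regions from 43.5 to 51.1 kb upstream. The nearest of the 4 held a Runx1 peak of 4.38-fold (q = 0.000167) and a Runx2 peak of 6.87-fold in control cells, and no Runx2 peak was listed there in Runx1KO cells. A weaker Runx1 peak (3.25-fold, q = 0.0168) lay in an intron 1.8 kb from the start of Peg3, in a stable region. The Runx1 peaks in the 3 closing regions of these members are shown on the plus strand, the first as the middle 300 of its 354 bases, with the Runx letters in capitals.

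Grb10 intron, chr11:11839679-11839978: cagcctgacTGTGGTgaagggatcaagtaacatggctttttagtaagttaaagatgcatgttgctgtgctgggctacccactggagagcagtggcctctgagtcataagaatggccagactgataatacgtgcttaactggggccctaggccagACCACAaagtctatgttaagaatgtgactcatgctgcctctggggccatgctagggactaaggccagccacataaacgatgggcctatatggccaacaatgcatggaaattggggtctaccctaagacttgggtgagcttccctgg

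Grb10 upstream, chr11:11972370-11972648: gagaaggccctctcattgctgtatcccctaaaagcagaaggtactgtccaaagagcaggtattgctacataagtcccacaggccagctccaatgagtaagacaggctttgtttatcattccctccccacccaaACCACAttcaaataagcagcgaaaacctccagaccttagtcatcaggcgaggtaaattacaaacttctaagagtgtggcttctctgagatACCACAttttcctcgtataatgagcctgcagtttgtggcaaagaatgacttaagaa

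Peg3 upstream, chr7:6726828-6727082: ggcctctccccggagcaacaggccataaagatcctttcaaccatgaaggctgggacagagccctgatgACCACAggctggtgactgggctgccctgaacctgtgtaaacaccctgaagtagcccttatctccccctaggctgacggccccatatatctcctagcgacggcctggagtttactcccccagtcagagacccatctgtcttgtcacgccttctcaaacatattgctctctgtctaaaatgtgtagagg

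The Grb10 peaks hold 2 matches each and the Peg3 peak holds 1. The letters are found in 38.3% of 300-base windows at the middle of Runx1 peaks, and the Grb10 upstream and Peg3 sequences are shorter than those windows. The other members had little of either class near them. Mest (chr6:30673547-30698457) had 3 stable regions, the nearest 29.5 kb upstream, and a Runx1 peak 61.0 kb downstream of its last start, in Copg2 (5.25-fold). H19 (chr7:149761434-149764048) had 3 opening and 6 stable regions, the nearest an opening one 26.2 kb downstream; a stable region in Mrpl23 held a Runx1 peak of 3.39-fold (q = 0.0154) and Runx2 peaks in both lines. Ndn (chr7:69493163-69494814) had 2 stable regions, Dlk1 (chr12:110691033-110701546) had 1 closing region 34.3 kb upstream, and Meg3 (chr12:110779211-110809936) had none.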

How the data were processed

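The members, the lists and the tests were chosen with earlier results of these data known. Per the paper, the authors trimmed reads with Trim Galore, aligned them with STAR to mm9, removed duplicates with sambamba, counted RefSeq genes with featureCounts 1.6.2 and deposited TPM. Strand use and gene lengths are not given in the sources used here. Their own comparison used DESeq2 1.26.0 on counts, which were not used here. Peaks of the Runx proteins came from MACS2, run by the authors on combined replicates of a ChIP, and they removed peaks of the Runx1 antibody in Runx1KO cells. The ratio deposited with each peak is the fold over local background, and its q-value was read from the deposited -log10 column. For ATAC-seq the authors kept peaks of at least 2 of 3 replicates in 3 classes; the columns with their own fold change and its p were not used.

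Groups followed the labels, with 3 libraries each. TPM values were fitted on log2(TPM + 1) with limma 3.58.1 in R 4.3.3, with a variance trend and Benjamini-Hochberg adjustment over all tested genes, for genes at 1 TPM or more in at least 3 of 6 libraries. A fold change on this scale understates the change of low genes. TPM keeps no depth, so precision was read from the spread of libraries. A TPM table of 6 libraries served as an alternative for Runx1KO against control; 4 of its rows shared a name and were left out. Replicate numbers did not pair samples (correlations of deviations from -0.05 to 0.04). All members were named, with their cluster neighbours, up to 3 called genes per list and comparison, and the 3 genes most like each of the 3 members of widest range. The fit was tested on simulated data. Peaks and sequences were read with Python 3.11.15, pandas 2.3.3 and pysam 0.24.0. Alternatives were other pseudocounts, filters, scalings and limits, a replicate block, 1 fit over all 9 libraries, no trend, each library left out (with the genes of the full filter), and for peaks other distances, q limits and overlaps.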

Additional observations from a re-analysis of the deposited data

How the results depend on the processing

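Members, called genes and neighbours were refitted under the alternatives, with 1038 refits of 65 genes and comparisons. Of these, 998 counted as the same, 28 passed the limit only under the alternative, 6 lost it and 6 reversed. Most of the 28 came from the limit of 1.3-fold, which lowers the limit and leaves the fit unchanged. A change of sign counted as the same where neither fit passed an adjusted p of 0.05. Thus Mest in Runx1KO against control kept its direction in 13 of 15 alternatives and adds no reversal. For ZebDKO against control, median-ratio scaling reversed Nap1l4 (0.0351), Cd81 (0.0352) and Igf2 (0.0518); for ZebDKO against Runx1KO it reversed Nap1l4 (0.0600), and quantile normalization reversed Cdkn1c (0.0475) and Copg2 (0.11). Cdkn1c in ZebDKO against Runx1KO kept an adjusted p under 0.05 in 8 of 16 alternatives, with p from 0.0119 to 0.589. The replicate block lost that result too (adjusted p = 0.0677) and moved no other tested member across an adjusted p of 0.05. A pseudocount of 0.1 raised Phlda2 to 7.38 and 6.39 against control and Plagl1 to 5.70, which low control values allow by construction. Counts of called members for Runx1KO against control, ZebDKO against control and ZebDKO against Runx1KO were 3, 5 and 3 with a limit of 1.3-fold, and 1, 3 and 1 to 2 with 1 library left out. Over all genes tested, the limit of 1.3-fold called 2413 higher and 2444 lower of 13067 for Runx1KO against control. It called 2244 and 4502 of 12974 for ZebDKO against control, and 2404 and 4376 of 13071 for ZebDKO against Runx1KO. Of the other imprinted genes, 13, 17 and 18 were called with that limit, and 4, 5 to 6 and 6 to 8 with 1 library left out. For Runx1KO against control the count was 7 with a pseudocount of 0.1 and 7 with 0.5; for ZebDKO against control it was 8 with 0.1 and 3 under quantile normalization; for ZebDKO against Runx1KO it was 4 under median-ratio scaling and 4 under quantile normalization. Of the regulators, 6, 5 and 9 were called at 1.3-fold and 0, 1 and 1 to 2 with 1 library left out (2 without ZebDKO replicate 2). For Runx1KO against control 1 was called with a pseudocount of 0.1 and 1 in the 6-library table; for ZebDKO against Runx1KO 2 were called with a pseudocount of 0.1, 0 with a filter of 5 TPM and 0 under median-ratio scaling, which both lose Dnmt3b. Of the 10 members, 2 and 2 had a Runx1 peak within 20 kb and 5 kb, beside 28.4% and 15.5% of all genes. A closing region lay that near for 1 and 1 (17.2% and 7.0% of all genes). An opening region did for 2 and 1 (25.5% and 10.3% of all genes). A stable region did for 4 and 3, a smaller share than the 72.1% and 58.5% of all genes, which was not tested. The causes were not tested. Depth is unknown, so members listed at 0 are not shown to be silent, and 3 libraries of a line of unknown clone number limit every comparison.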

Other observations

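The deposited table of 6 control and Runx1KO libraries gave some members other levels than the table of 9 libraries. Peg3 read 205 to 244 TPM in control and 168 to 175 in Runx1KO cells there, beside 384.9 to 444.5 and 316.8 to 330.8 in the other table. Its neighbour Zim1 read 9.62 to 11.2 and 1.63 to 1.84 TPM, and Igf2 read 253 to 273 and 304 to 311. Snrpn was listed at 0 in every library there, beside means of 2.67 and 4.57 TPM in the table of 9 libraries. Phlda2 read 0, 0.15 and 0.15 TPM in control and 25 to 27.8 in Runx1KO cells, and Cdkn1c read 4.50 to 5.64 and 9.69 to 10.5. Mest read 0.08 to 0.42 TPM in control and 0.04 to 0.16 in Runx1KO cells, under the filter of 1 TPM, so it had no test there. Grb10 was close in both, at 106 to 114 and 67.3 to 71.9 TPM. The differences between the lines had the same direction in both tables for the members tested in both, Peg3, Cdkn1c, Grb10 and Phlda2.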
